A study of Mus musculus with 2 samples.

Results

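The 10 genes described here encode the agonists interleukin-1α, interleukin-1β and interleukin-18 (Il1a, Il1b, Il18), the proteins that restrain or transmit interleukin-1 (Il1rn, Il1r2, Il1rap) and parts of the inflammasome (Nlrp3, Casp1, Casp4, Gsdmd). They were chosen by symbol from the gene table, in which all 10 were found among 31053 genes. Single cells were sequenced from the colons of bone marrow chimaeras, in 1 library per genotype. The IL-10R KO library (hereafter KO) came from CD45.1 recipients engrafted with CD45.2 bone marrow lacking the interleukin-10 receptor, and the IL-10R/CerS2 DKO library (hereafter DKO) from recipients whose donor marrow lacked ceramide synthase 2 as well. Both groups were therefore labelled as carrying the receptor deletion, constitutive in donor-derived cells, and no library with an intact receptor was analysed here. The methods name the receptor gene as Il10rb. The age and sex of the recipients and the number of animals pooled per library are not given by the labels. Cells were sorted on CD45, CD11b, CD11c and CD64, a gate intended for macrophages and not for granulocytes or lymphocytes. Residual recipient cells could not be told from donor cells by these counts.

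Interleukin-1α and interleukin-1β signal through IL1R1 with its accessory chain IL1RAP, and both are made as precursors. IL1RN occupies the receptor without signalling, and IL1R2 is a decoy that binds the agonists but lacks a signalling domain. NLRP3 is a cytosolic sensor that assembles an inflammasome in which caspase-1 cleaves the precursors of interleukin-1β and interleukin-18, caspase-4 (mouse caspase-11) senses intracellular lipopolysaccharide, and gasdermin D is cleaved by both caspases to form the pore through which cytokine leaves the cell. Interleukin-10 is a known restraint on this system in intestinal macrophages. Messenger RNA alone was measured, so neither cleavage nor secretion is covered by the values below.

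The genes Il1a and Il1b are neighbours. In GRCm38, Il1a lies at chr2:129299610-129309972 and Il1b at chr2:129364570-129371139, both on the minus strand, whereas Il1rn lies at chr2:24336853-24351494 on the plus strand. Casp1 (chr9:5298517-5307265) and Casp4 (chr9:5308828-5336783) are adjacent paralogues on the plus strand, and reads that fit both genes equally could not be assigned to either. The other genes lie at chr1:40074079-40125231 (Il1r2), chr16:26581704-26730117 (Il1rap), chr9:50554827-50581840 (Il18), chr11:59541568-59566956 (Nlrp3) and chr15:75862327-75867408 (Gsdmd). All 10 are annotated as protein-coding. The antisense gene Il1bos overlaps Il1b on the opposite strand and was a separate row of the gene table.

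The promoters of the 3 interleukin-1 ligand genes on chromosome 2 are shown because the results below turn on how differently Il1a, Il1b and Il1rn were distributed among the cell classes. Each runs from 250 bases before to 50 bases after an annotated start, 5′ to 3′ on the gene's own strand (RefSeq, GRCm38.p6), and capitals mark TATAAA or GAGGAAG on either strand.
Il1a, chr2:129309923-129310222, minus strand: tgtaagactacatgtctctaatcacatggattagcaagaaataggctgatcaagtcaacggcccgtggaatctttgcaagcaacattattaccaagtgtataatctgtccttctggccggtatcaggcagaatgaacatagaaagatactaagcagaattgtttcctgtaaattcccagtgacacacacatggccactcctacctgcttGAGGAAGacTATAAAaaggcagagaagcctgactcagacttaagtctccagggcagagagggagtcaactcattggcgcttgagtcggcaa
Il1b, chr2:129371090-129371389, minus strand: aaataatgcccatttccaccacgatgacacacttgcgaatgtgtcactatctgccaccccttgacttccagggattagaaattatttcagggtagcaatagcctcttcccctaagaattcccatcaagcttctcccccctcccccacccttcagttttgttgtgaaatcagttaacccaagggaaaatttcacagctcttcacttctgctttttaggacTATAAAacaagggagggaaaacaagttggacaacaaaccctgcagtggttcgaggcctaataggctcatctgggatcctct
Il1rn, chr2:24336610-24336909, plus strand: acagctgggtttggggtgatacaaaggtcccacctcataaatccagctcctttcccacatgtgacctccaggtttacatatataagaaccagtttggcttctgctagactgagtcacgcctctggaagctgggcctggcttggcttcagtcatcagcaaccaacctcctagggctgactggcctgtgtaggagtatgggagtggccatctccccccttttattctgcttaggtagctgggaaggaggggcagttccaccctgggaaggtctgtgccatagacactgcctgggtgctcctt

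TATAAA stood 32 bases before the Il1a start and 31 bases before the Il1b start, and 13.6% of 32851 mouse promoters of the same length held these letters on either strand. The Il1rn window shown held neither motif. Il1rn also had windows at chr2:24345041-24345340 and chr2:24345121-24345420, which are not shown. The latter held the TATAAA letters on the opposite strand, 14 bases after its start. GAGGAAG, the core letters of a PU.1-type site, lay close upstream of TATAAA in the Il1a window and occurred in 13.6% of all promoters. It was also found at 2 places in a window of Nlrp3, and TATAAA 175 bases before the Il18 start. An NF-κB-type motif, also searched, was found in both windows of Casp4 and in no other window of the 9 members present in the table, against 1.20% of all promoters. It was searched as a fixed pattern, so sites that depart from it were not counted. A C/EBP-type motif was found in windows of Il1a, Il1b, Il1rn, Nlrp3 and Casp4, and in 40.7% of all promoters. These matches describe letters in short windows and carry no measurement of binding.

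The KO library held 2584 barcodes and 12549471 unique molecular identifiers (UMIs, counted mRNA molecules), and the DKO library 742 barcodes and 3414944 UMIs. After filtering, 2443 and 730 cells were kept, and 1 barcode was shared by the libraries. Cers2, the gene deleted in the DKO donors, gave 552 UMIs in the KO library (44.5 UMIs per 1000000, CPM) and 2 in the DKO library (0.588 CPM), in the direction of the labels. Il10rb gave 74 UMIs in the KO library (5.96 CPM) and 14 in the DKO library (4.12 CPM), and whether these 3′ reads lie in the deleted part or come from recipient cells was not tested. Cells were clustered without the 10 genes and without a list of 51 pathway genes, and clusters were named from fixed markers. This gave 863 KO and 206 DKO macrophage-like cells, 430 and 89 monocyte-like cells, 161 and 48 neutrophil-like cells, and 106 and 54 dendritic cell-like cells. The sorted cells therefore included neutrophil-like cells, as well as 288 KO and 112 DKO cells with markers of T cells or innate lymphoid cells (T cell-like below) and 229 KO and 166 DKO B cell-like cells. A further cluster, led by Arg1, Cxcl3 and Mmp3, held 183 KO cells and 1 DKO cell. Only 2 markers of the monocyte list defined it, too few for a name, so it is called the Arg1-led cluster and only its KO levels are described.

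All levels below are sums of UMIs over the cells of a class in a library, as CPM of that class. Depth differed between classes. Median UMIs per cell were 1598 (KO) and 1550.5 (DKO) in neutrophil-like cells, and 6332 in the KO Arg1-led cluster. They were 5904 and 5729.5 in macrophage-like, 5062 and 5375 in monocyte-like, and 8023.5 and 9475 in dendritic cell-like cells. An order of classes by CPM is therefore not an order by UMIs per cell. Intervals are exact 95% intervals for counting error only. With 1 library per genotype there was no replicate error and no test, and differences between genotypes cannot be told apart from differences between libraries. A gene was counted as different when its CPM differed 2-fold or more with at least 20 UMIs over both libraries. In the macrophage-like class this rule held for 1 of 10 members (Il1rap, higher in DKO), against 7.08% of 9041 genes (4.36% higher, 2.72% lower). In the monocyte-like class it held for 1 of 9 (Il1r2, lower), against 8.1% of 6898 genes (2.9% higher, 5.2% lower). In the neutrophil-like class it held for 1 of 8 (Il1a, lower), against 16.0% of 1977 genes (4.25% higher, 11.7% lower), and in the dendritic cell-like class for 1 of 8 (Il1a, lower), against 9.74% of 5350 genes (4.21% higher, 5.53% lower). The smaller nonclassical monocyte-like class, of 42 KO and 22 DKO cells, had 1 of 4 (Casp4, lower, 23 and 4 UMIs), against 14.5% of 1665 genes (5.35% higher, 9.13% lower). The share of members past 2-fold was thus near that of all genes. Those calls rested on 21 to 207 UMIs, and the better-counted differences lay below 2-fold. The median log2 ratio (DKO over KO) of the members was -0.21 in macrophage-like cells (all genes 0.10), -0.24 in monocyte-like cells (-0.01), -0.23 in neutrophil-like cells (-0.07) and 0.35 in dendritic cell-like cells (-0.05).

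**Figure D1:**
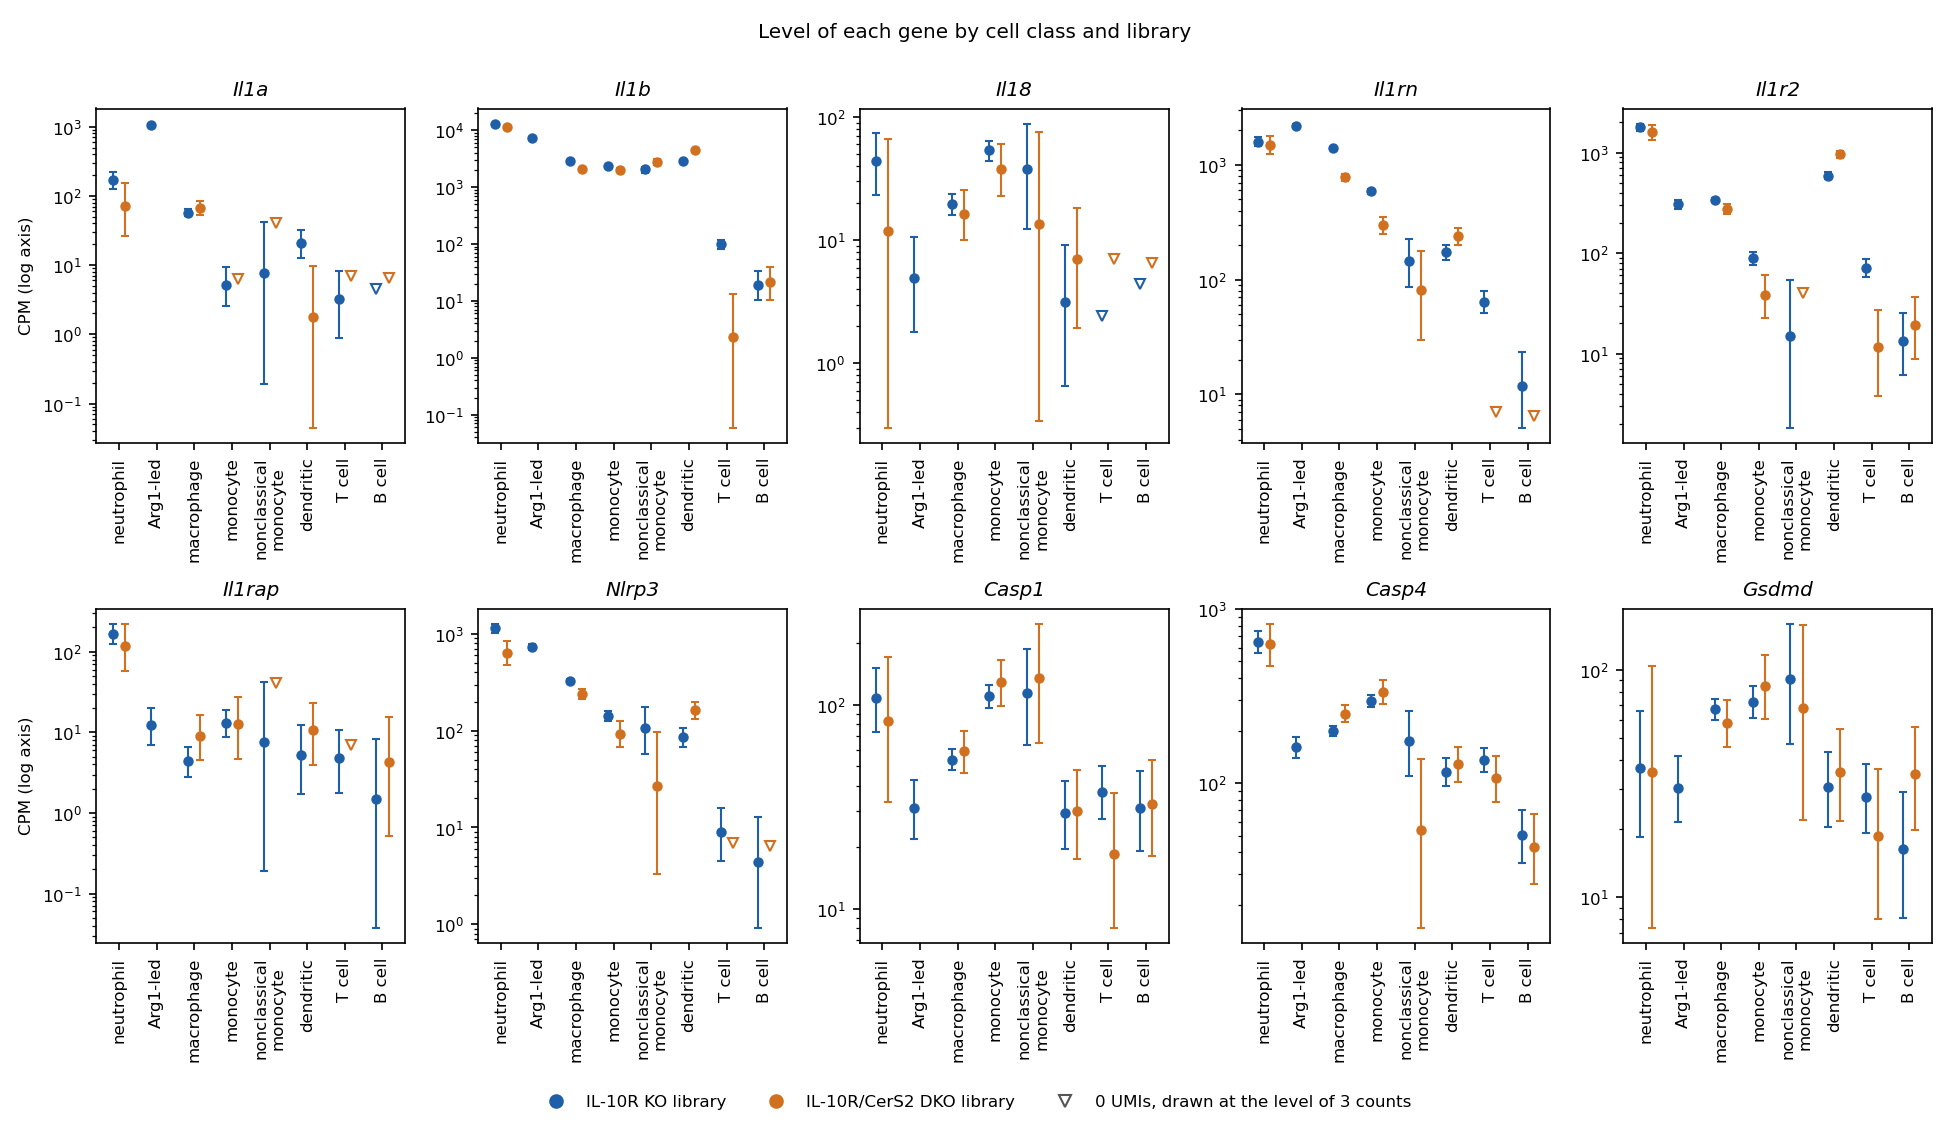
Level of each gene in CPM (log axis) by cell class, in the KO (blue) and DKO (orange) libraries; bars are exact 95% counting intervals and open triangles mark 0 UMIs, drawn at the level of 3 counts. By CPM, Il1b and Il1r2 were highest in neutrophil-like cells, and Il1a was highest in the Arg1-led cluster, whose single DKO cell is not drawn.

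Il1b, the interleukin-1β gene, was carried by every myeloid class and had its highest CPM in neutrophil-like cells. There its level was 12557 CPM in the KO library and 11151 CPM in the DKO library. The Arg1-led cluster followed at 7127 CPM in the KO library. By UMIs the order differed, with 8708 in the 183 KO cells of that cluster and 3747 in 161 KO neutrophil-like cells. In DKO, 54 dendritic cell-like cells held 2578 Il1b UMIs and 48 neutrophil-like cells held 941. Macrophage-like cells had 2851 (KO) and 2070.0 CPM (DKO), and monocyte-like cells 2375 and 2012 CPM. Those 2 classes were lower in DKO, by a log2 ratio of -0.46 (-0.52 to -0.40) and -0.24 (-0.34 to -0.14). The neutrophil-like difference was smaller, -0.17 (-0.28 to -0.07). Dendritic cell-like cells went the other way, from 2827 CPM in KO to 4554 CPM in DKO (log2 ratio 0.69, 0.61 to 0.77). Nonclassical monocyte-like cells were also higher in DKO, with 2036 and 2758 CPM, on 269 and 204 UMIs.

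Il1b was present in nearly all neutrophil-like cells and in most other myeloid cells. After each cell was thinned to 1500 UMIs, 74.4% (71.3 to 77.4) of KO and 55.9% (48.6 to 63.0) of DKO macrophage-like cells had an Il1b UMI, against 87.8% and 76.2% unthinned. Lymphocyte-like cells (T and B), which should lack the gene, reached between 0% and 4.26% at the same depth (by the limit of 3 counts, 0 of 109 DKO T cell-like cells allows a share of cells with a UMI of up to 2.75%). The share in neutrophil-like cells was 99.0% and 100%, over 98 KO and 27 DKO cells deep enough to be thinned. Cells differed widely within a class. Among macrophage-like cells the median was 16.6 Il1b UMIs per 10000 in KO, with quartiles of 4.13 and 40.9, and 7.38 in DKO, with quartiles of 1.09 and 29.1. The tenth of cells with most Il1b held 41.4% of the class's Il1b UMIs in KO and 49.5% in DKO. In KO T cell-like cells, 82 of 121 Il1b UMIs came from a single cell.

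Il1a, the interleukin-1α gene, had a much narrower distribution than Il1b. The Arg1-led cluster stood at 1045 CPM in the KO library (989 to 1104), with at least 1 UMI in 126 of its 183 cells. That cluster held 76.1% of the 1677 Il1a UMIs of the KO library, but 24.3% of the 35846 Il1b UMIs. The DKO library had 89 Il1a UMIs in all, of which 82 were in macrophage-like cells. In that class the level was 57.5 (KO) and 67.4 CPM (DKO) (log2 ratio 0.24, -0.14 to 0.59), and 46 of the 82 DKO UMIs came from a single cell. Without the cell with most Il1a in each library the ratio was -0.82, on 277 and 36 UMIs, and with cells assigned by their own markers, which placed 77 cells of the Arg1-led cluster among the KO macrophages, it was -1.25. Neutrophil-like cells had 168 (KO) and 71.1 CPM (DKO), on 50 and 6 UMIs (log2 ratio -1.14, -2.75 to -0.01). Dendritic cell-like cells had 20 UMIs in KO, 13 of them in a single cell, and 1 UMI in DKO (log2 ratio -3.02, -8.94 to -0.92). Without the top cells 7 and 0 UMIs were left, too few for a call. Monocyte-like cells had 11 UMIs in KO and 0 in DKO, where 3 counts would have been 6.37 CPM against 5.17 CPM in KO, so a difference was not detectable at this depth.

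**Figure D2:**
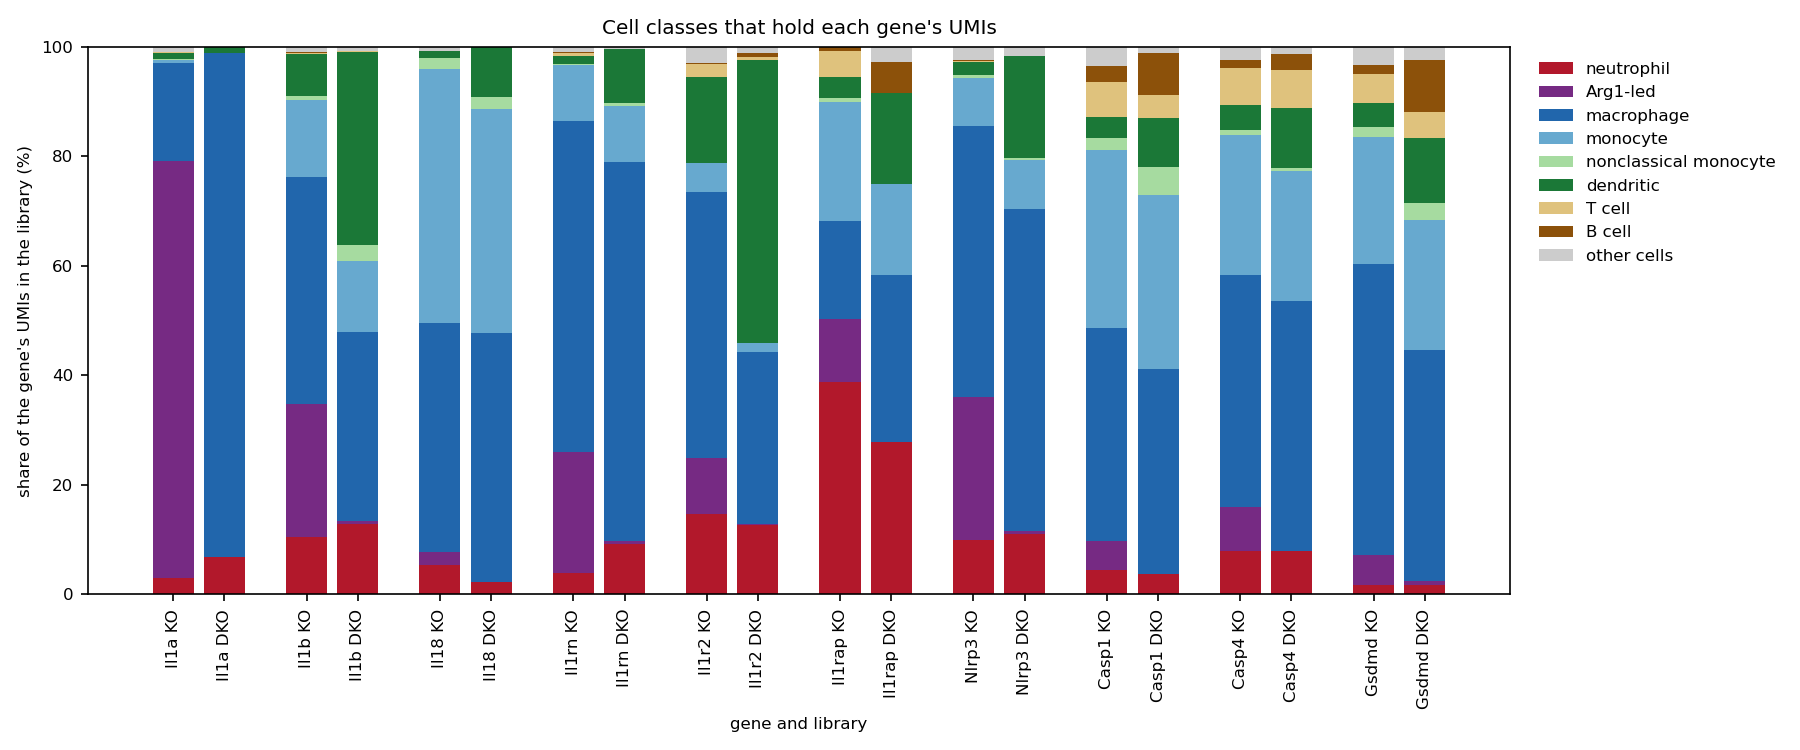
Share of each gene's UMIs (percent of the UMIs of that gene in the kept cells of a library) by cell class, with a KO and a DKO bar per gene. The Arg1-led cluster held 76.1% of the KO Il1a UMIs, and dendritic cell-like cells held 51.7% of the DKO Il1r2 UMIs against 15.6% in KO.

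Il18, whose product is cleaved by the same caspase as that of Il1b, was distributed differently from Il1a and Il1b. Monocyte-like cells had 53.5 (44.2 to 64.3, KO) and 38.2 CPM (DKO), on 114 and 18 UMIs (log2 ratio -0.45, -1.29 to 0.24). Neutrophil-like cells had 43.6 (23.2 to 74.5, KO) and 11.9 CPM (DKO), on 13 and 1 UMIs, and nonclassical monocyte-like cells 37.8 (12.3 to 88.3) and 13.5 CPM, on 5 and 1 UMIs, so that the KO intervals of these 3 classes overlapped. Macrophage-like cells had 19.7 and 16.5 CPM (-0.23, -1.03 to 0.44). The Arg1-led cluster, high for both interleukin-1 agonists, had 6 Il18 UMIs in 183 cells (4.91 CPM), and no UMI was seen in either lymphocyte class of either library. The counting intervals of these differences included 0, and the 44 Il18 UMIs of the DKO library limit what could be seen.

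Il1rn, which encodes the receptor antagonist, showed the largest difference among members with at least 100 UMIs in each library. In macrophage-like cells it measured 1407 (KO) and 779 CPM (DKO), on 7346 and 947 UMIs (log2 ratio -0.85, -0.95 to -0.76). In monocyte-like cells it was 587 (KO) and 299 CPM (DKO) (log2 ratio -0.97, -1.23 to -0.72). Neither value reached 2-fold, and both intervals lay below 0. The neutrophil-like level was 1592 (KO) and 1493 CPM (DKO) (-0.09, -0.39 to 0.19), and the dendritic cell-like level 173 and 240 CPM (0.47, 0.14 to 0.81). The dendritic cell-like ratio was 0.30 without the top cell and -0.16 with cells assigned by their own markers, so its direction was not stable. After thinning, the monocyte-like ratio was -0.56. The highest level belonged to the Arg1-led cluster, at 2201 CPM in KO. In thinned cells an Il1rn UMI was found in 72.5% (69.3 to 75.5) of KO and 49.7% (42.5 to 57.0) of DKO macrophage-like cells (unthinned 87.1% and 67.5%), against at most 2.13% of T cell-like or B cell-like cells. With the Arg1-led cluster, the macrophage-like, monocyte-like and nonclassical monocyte-like cells taken as 1 group had 1298 (KO) and 622 CPM (DKO) (log2 ratio -1.06, -1.15 to -0.97). Il1rn and Il1a (-1.97) were the 2 of 10 members past 2-fold in that group, against 7.79% of 9748 genes (3.96% higher, 3.83% lower).

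Il1r2, the decoy receptor gene, had its highest CPM in neutrophil-like cells, with 1783 (KO) and 1588 CPM (DKO) (log2 ratio -0.16, -0.45 to 0.11). Dendritic cell-like cells came next, with 592 (KO) and 965 CPM (DKO) (log2 ratio 0.70, 0.53 to 0.88). In KO these were 532 UMIs in 161 neutrophil-like cells and 565 UMIs in 106 dendritic cell-like cells. Macrophage-like cells had 337 and 274 CPM (-0.30, -0.47 to -0.13), a ratio that was 0.13 with clusters weighted as in KO. Monocyte-like cells were lowest of the 4 classes, with 88.8 (KO) and 38.2 CPM (DKO), on 189 and 18 UMIs (log2 ratio -1.18, -2.002 to -0.52). That difference was -0.06 when each cell was instead assigned by its own markers, on 397 and 79 UMIs. In the DKO library 51.7% of all Il1r2 UMIs lay in dendritic cell-like cells, against 15.6% in KO. That class was also a larger share of the kept cells in DKO, 7.397% (5.61 to 9.54) against 4.34% (3.57 to 5.22).

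Il1rap, the accessory chain of the interleukin-1 receptor, was sparse, with 129 KO and 36 DKO UMIs over all kept cells. Neutrophil-like cells had 168 (KO) and 119 CPM (DKO), on 50 and 10 UMIs (log2 ratio -0.44, -1.65 to 0.50). Macrophage-like cells had 4.40 (KO) and 9.05 CPM (DKO), on 23 and 11 UMIs (log2 ratio 1.07, -0.15 to 2.13). The call rested on 34 UMIs, 4 of them in 1 DKO cell, and the ratio was 0.94 under TMM scaling, 0.58 without the top cell and 0.01 with cells assigned by their own markers.

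**Figure D3:**
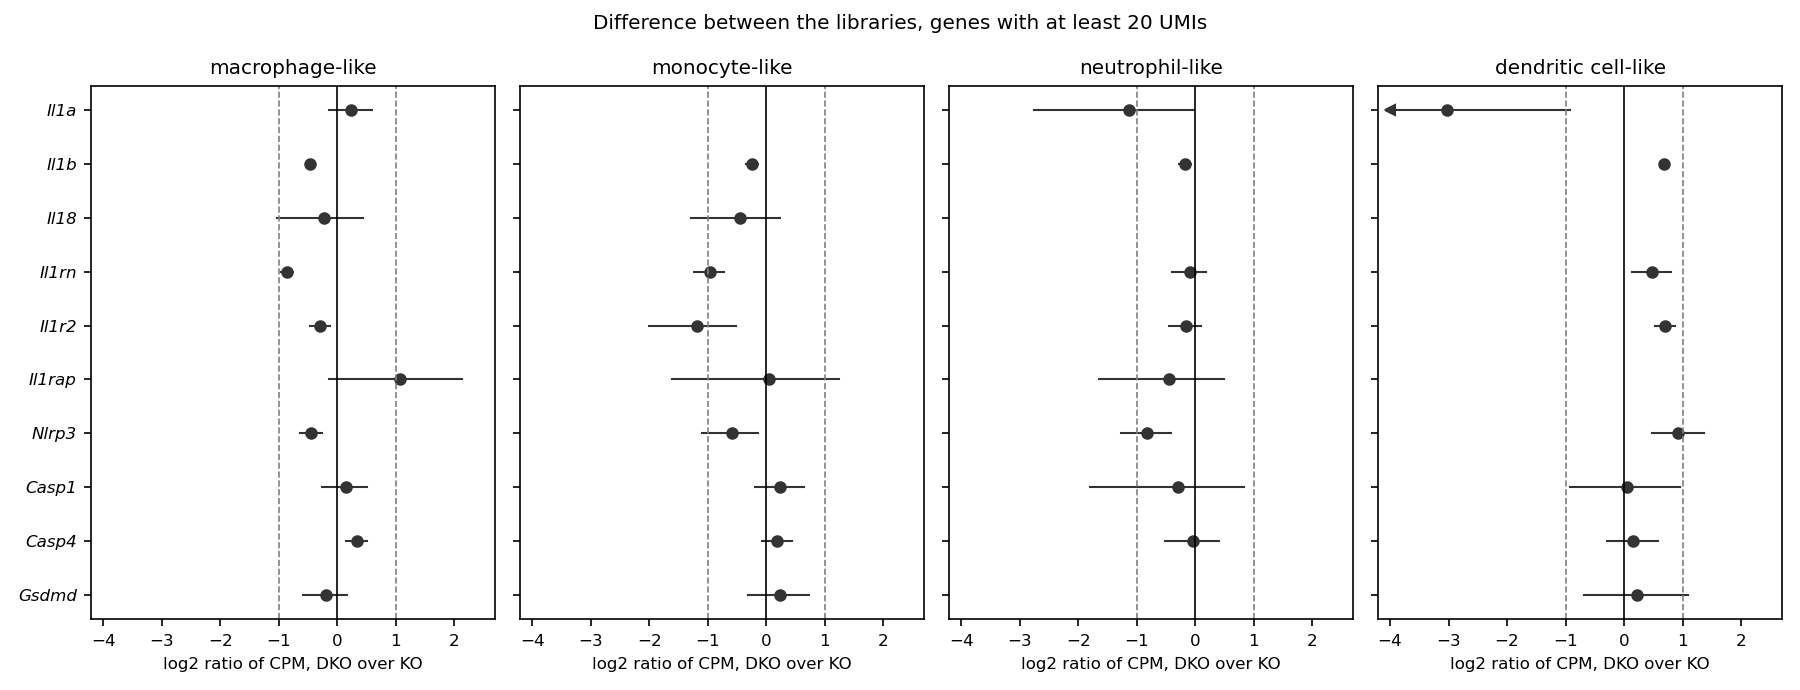
Log2 ratio of CPM, DKO over KO, for members with at least 20 UMIs in each of the 4 classes; lines are exact 95% counting intervals, the arrow marks an interval that runs past the axis, and dashed lines mark 2-fold. Il1rn lay below 0 in macrophage-like and monocyte-like cells, and Il1b, Il1rn, Il1r2 and Nlrp3 lay above 0 in dendritic cell-like cells.

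The balance of antagonist to agonist mRNA was compared within each class as UMIs of Il1rn or Il1r2 per 100 UMIs of Il1b, a quantity that does not depend on the library total. Macrophage-like cells had the highest value of the 4 classes for Il1rn, 49.3 (48.0 to 50.8) in KO and 37.6 (34.9 to 40.6) in DKO. Monocyte-like cells had 24.7 (23.2 to 26.3) in KO and 14.9 (12.4 to 17.8) in DKO. Neutrophil-like cells had 12.7 and 13.4, with overlapping intervals, and dendritic cell-like cells 6.12 and 5.28. Of these 4 classes, dendritic cell-like cells had the lowest value in both libraries, and the DKO monocyte-like and neutrophil-like intervals overlapped. When every cell was thinned to the same number of UMIs the macrophage-like values were 47.9 in KO and 46.6 in DKO, and the monocyte-like values 25.5 and 20.8, so the macrophage-like difference was smaller when each cell counted equally.

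Il1r2 gave another order. Dendritic cell-like cells had 20.95 Il1r2 UMIs per 100 Il1b UMIs in KO and 21.2 in DKO, so the higher DKO levels of both genes left their proportion within its interval (19.1 to 22.9 in KO). Neutrophil-like cells had 14.2 in both libraries. Macrophage-like cells had 11.8 (11.2 to 12.4) in KO and 13.2 (11.8 to 14.8) in DKO, and monocyte-like cells 3.74 (3.22 to 4.32) and 1.90 (1.12 to 3.02). In dendritic cell-like and neutrophil-like cells decoy UMIs were thus as frequent as or more frequent than antagonist UMIs. Macrophage-like and monocyte-like cells held several times more Il1rn than Il1r2. The smaller dendritic cell-like cluster 15, described below, also held more Il1rn than Il1r2, with 58 and 22 UMIs in KO and 39 and 1 in DKO. UMIs of different genes were set side by side without correction for transcript length, as the assay counts 3′ ends.

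**Figure D4:**
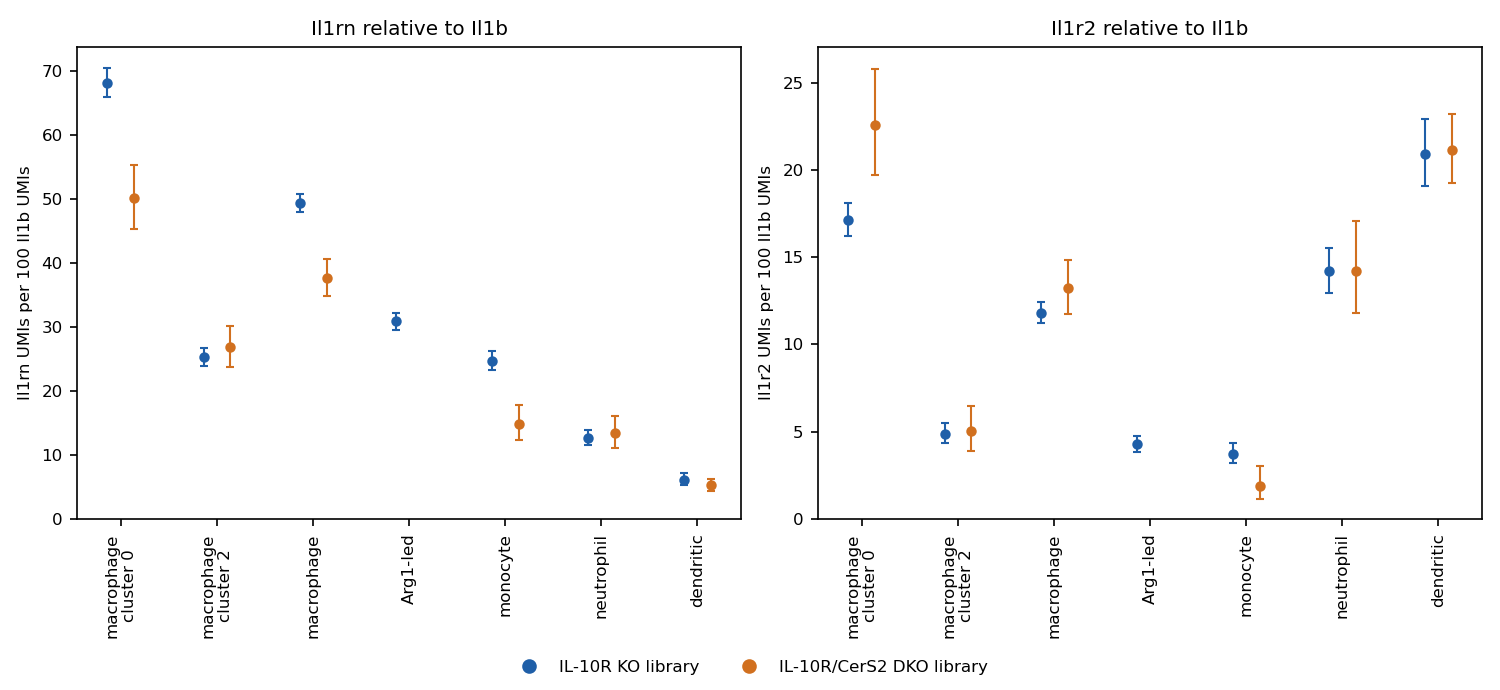
UMIs of Il1rn (left) and Il1r2 (right) per 100 UMIs of Il1b by class and library, with exact 95% counting intervals. Il1rn per Il1b was, of the groups drawn, highest in macrophage-like cluster 0, at 68.2 in KO and 50.1 in DKO, and Il1r2 per Il1b was 20.95 in KO and 21.2 in DKO dendritic cell-like cells.

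The macrophage-like class joined clusters that differed in these genes and in their share of each library. Cluster 0, led by Il22ra2, Fscn1 and Gpnmb, held 509 KO and 66 DKO cells, and cluster 2, led by Retnla, Fgfr1 and Prg4, held 318 KO and 136 DKO cells. The macrophage markers, all 10 detected, summed to 12992 (KO) and 14601 CPM (DKO) over the class. Of these, Mrc1 was 108 and 357 CPM, and only Cd63 was lower in DKO (389 and 354 CPM). The monocyte markers over the monocyte-like class, all 8 detected, summed to 7326 and 5499 CPM, most of it Plac8 (5614 and 3759 CPM). Of the others, Ly6c2 (581 and 647 CPM), F13a1, Ms4a4c and Chil3 were higher in DKO, and Vcan, Ccr2 (374 and 320.5 CPM) and Fn1 were lower. The part of these markers in the ratios was not tested. The remaining cluster 5, led by Reg3b, Ccl8 and Art2b, held 36 and 4. Il1b was 2382 (KO) and 2334 CPM (DKO) in cluster 0 (log2 ratio -0.03, -0.12 to 0.06), but 3889 and 1885 CPM in cluster 2 (-1.05, -1.13 to -0.96). The lower Il1b of DKO macrophage-like cells thus lay in cluster 2. Il1rn was lower in DKO in both, with 1624 and 1170.0 CPM in cluster 0 (-0.47, -0.60 to -0.35) and 983 and 505 CPM in cluster 2 (-0.96, -1.13 to -0.79). Il1r2 went in opposite directions, with 408 and 528 CPM in cluster 0 (0.37, 0.17 to 0.56) and 189.5 and 95.1 CPM in cluster 2 (-0.99, -1.40 to -0.61). With clusters weighted as in the KO library, the log2 ratio of the whole class was -0.60 for Il1rn. The Il1rn to Il1b proportion was 68.2 per 100 in KO and 50.1 in DKO in cluster 0, and 25.3 and 26.8 in cluster 2.

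Dendritic cell-like cells also joined unlike clusters, which were separated at a finer clustering. Cluster 10, with the dendritic cell markers Flt3, Dpp4 and Cd209a, held 92 KO and 45 DKO cells. Cluster 15, with Flt3, Dpp4, Ccr7 and Ccl22, held 14 and 9. In cluster 10 Il1b was 2780.3 (KO) and 5484 CPM (DKO) (log2 ratio 0.98, 0.90 to 1.06) and Il1r2 was 646 and 1164 CPM (0.85, 0.68 to 1.02). In cluster 15 Il1b was 3174 (KO) and 112 CPM (DKO), where all 11 UMIs came from 1 of 9 cells. A single DKO cell held 341 of the 2578 dendritic cell-like Il1b UMIs of its library. Marker lists did not move together in these cells. Of the 10 markers of monocytes and macrophages as a whole, all were detected in KO and 9 in DKO (Vcan at 0), and their sum was 1601 (KO) and 5858 CPM (DKO), most of it Lyz2 (918 and 5211 CPM). C1qb, by contrast, was lower in DKO (122 and 24.7 CPM), and the separate macrophage list (10 of 10 detected in KO, 9 in DKO with Trem2 at 0) summed to 877 and 662 CPM. The dendritic cell list, all 8 detected in both libraries, summed to 1436 (KO) and 2213 CPM (DKO), most of it Ccr7 (1013 and 1747 CPM). Flt3, Zbtb46, Dpp4 and Cd209a were also higher in DKO. Clec9a (22.0 and 14.1 CPM), Xcr1 (25.2 and 12.4 CPM) and Ccl22 (176 and 159 CPM) were lower. The part of these markers in the Il1b, Il1rn, Il1r2 and Nlrp3 values was not tested.

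**Figure D5:**
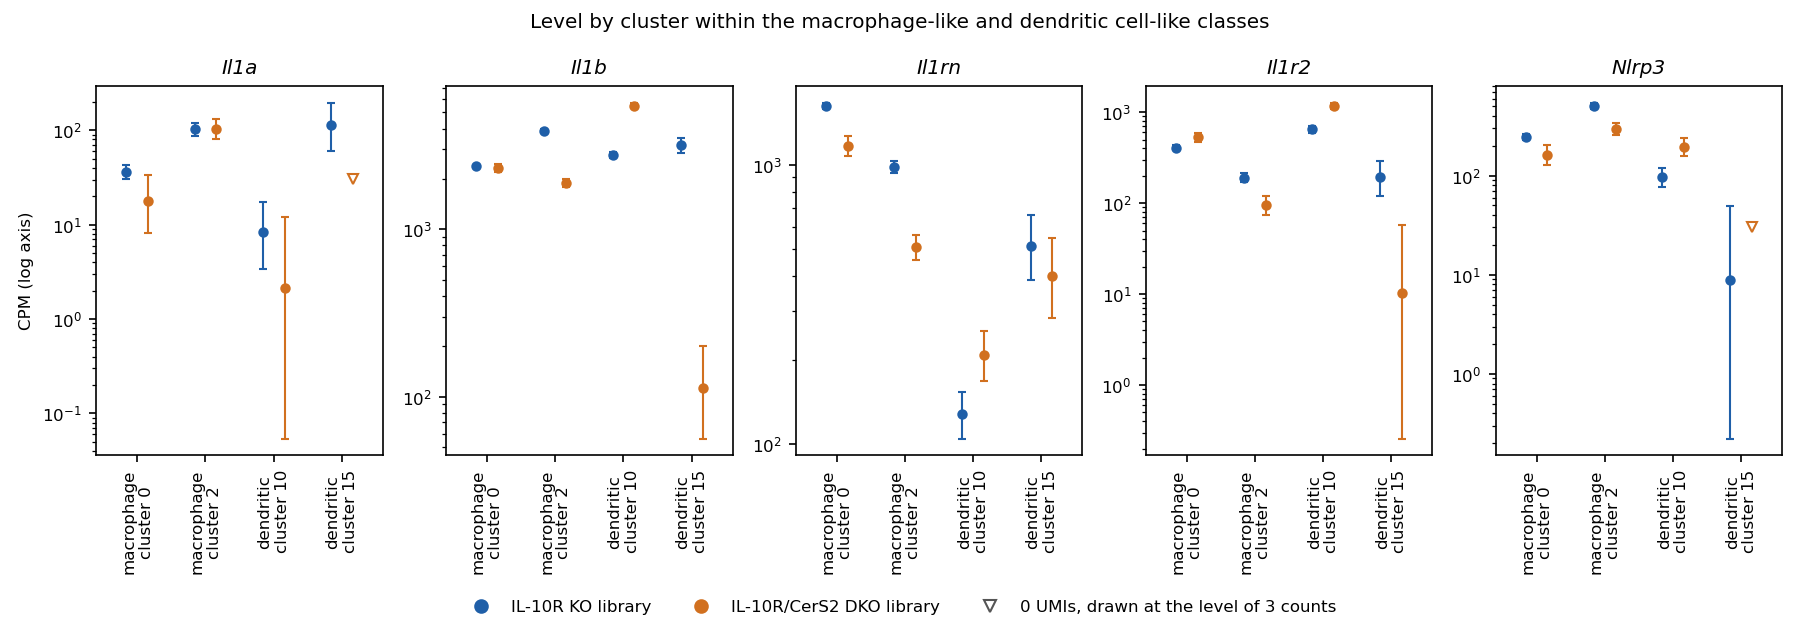
Level in CPM (log axis) of 5 genes in macrophage-like clusters 0 and 2 and dendritic cell-like clusters 10 and 15, with exact 95% counting intervals; open triangles mark 0 UMIs, drawn at the level of 3 counts. The lower DKO Il1b lay in macrophage-like cluster 2 (3889 and 1885 CPM) and the higher DKO Il1b in dendritic cell-like cluster 10 (2780.3 and 5484 CPM).

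By CPM, Nlrp3, the inflammasome sensor gene, was highest where Il1b was highest. Neutrophil-like cells had 1139 (KO) and 640 CPM (DKO) (log2 ratio -0.82, -1.27 to -0.41). The Arg1-led cluster had 732 CPM in KO. Macrophage-like cells had 325 (KO) and 239 CPM (DKO) (-0.44, -0.63 to -0.26), and monocyte-like cells 141 and 93.4 CPM (-0.58, -1.09 to -0.14). In dendritic cell-like cells it was higher in DKO, 86.0 and 163 CPM (0.92, 0.47 to 1.37), on 82 and 92 UMIs, and 20 of the DKO UMIs were in a single cell. All 8 markers of the neutrophil list were detected in both libraries, and their summed level was 87907 (KO) and 129788 CPM (DKO). Most of it was S100a9 (44302 and 73592 CPM) and S100a8 (25485 and 37732 CPM). Cxcr2, Hdc, Retnlg and Mmp9 were also higher in DKO, and G0s2 (10998 and 7099 CPM) and Csf3r (1042 and 758 CPM) were lower. Of the 5 mast cell or basophil markers, 1 was detected in KO (Kit) and 2 in DKO (Mcpt8, 119 CPM, and Gata2, 23.7 CPM), with sums of 3.35 and 142 CPM and with Cpa3 and Ms4a2 at 0 in both. The part of either list in the neutrophil-like values was not tested. Nlrp3 was lower in DKO in both large macrophage-like clusters, with 245 and 163 CPM in cluster 0 and 507 and 295 CPM in cluster 2.

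Casp1, whose product cleaves the precursors of interleukin-1β and interleukin-18, was 110 (KO) and 129 CPM (DKO) in monocyte-like cells, on 234 and 61 UMIs (log2 ratio 0.25, -0.19 to 0.65), and 53.8 and 59.2 CPM in macrophage-like cells (0.15, -0.26 to 0.52). It was low in the Arg1-led cluster, at 31.1 CPM in KO, a level also seen in B cell-like cells (31.1 CPM in KO, 32.5 CPM in DKO). Casp4 had its highest CPM in neutrophil-like cells, with 647 (KO) and 628 CPM (DKO) (-0.03, -0.51 to 0.40). In macrophage-like cells it was higher in DKO, 199 and 251 CPM (0.33, 0.14 to 0.52), a ratio of -0.04 once clusters were weighted as in KO. It was lower in DKO in cluster 0, 133 and 87.3 CPM (-0.60, -1.09 to -0.17), and 354 and 366 CPM in cluster 2 (0.05, -0.17 to 0.26). Monocyte-like cells had 295 and 335 CPM (0.19, -0.08 to 0.44). Gsdmd, the pore-forming effector, was 67.02 (KO) and 58.4 CPM (DKO) in macrophage-like cells (-0.19, -0.59 to 0.17) and 72.3 and 84.9 CPM in monocyte-like cells (0.24, -0.31 to 0.74). Its intervals included 0 in all 4 classes.

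The Arg1-led cluster, high in Nlrp3 and Il1b, thus had a low Casp1 level. Neutrophil-like cells combined the highest CPM of Nlrp3 and Il1b with 107 (KO) and 82.95 CPM (DKO) of Casp1, on 32 and 7 UMIs. Across 12 clusters with both libraries summed, the level of Nlrp3 on the log2(CPM + 10) scale followed that of Il1b with a Pearson correlation of 0.93 and that of Il1rn with 0.93, whereas Casp1 gave 0.45 with Il1b and -0.07 with Il1a. These clusters come from the same libraries and are a description. They included B cell-like and T cell-like clusters, where Il1b was 7.71 to 153 CPM and Nlrp3 2.64 to 10.6 CPM, and an unnamed cluster. Dendritic cell-like cells entered within a cluster of 203 cells that also held cells with epithelial markers. The correlations therefore span lymphocytes as well as myeloid cells, and were not computed among myeloid cells alone. Among 6346 genes the pattern most like that of Il1b was Tnfaip2 (0.98), an inducible gene of inflammatory signalling, followed by Cd14 and App (both 0.95). For Il1a it was Cxcl2 (0.92), a neutrophil chemoattractant, then Slc2a1, a glucose transporter (0.91), and Gclm (0.90). For Il1rn it was Cd14 (0.95), Ier3 (0.94) and Thbs1 (0.94), and for Il1r2 Antxr2 (0.96), Ccr1 (0.88) and Adam8 (0.87).

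Of the 51 further genes of the pathway list, 50 were found in the table. In macrophage-like cells 33 had at least 20 UMIs, of which 0 were 2-fold higher and 2 were 2-fold lower in DKO, against 7.08% of all genes counted in that class in either direction, with a median log2 ratio of -0.04. The lower genes were Prtn3, a neutrophil serine protease (8.62 and 1.64 CPM, 45 and 2 UMIs), and Serpinb2, a serpin (11.5 and 3.29 CPM), for which 52 of 60 KO UMIs came from 1 cell. In monocyte-like cells 31 were counted, 2 higher and 4 lower, against 2.9% and 5.2% of all genes, with a median of -0.25. The higher genes were Irak1, a kinase downstream of the receptor (26.8 and 57.3 CPM), and Gsdme, a gasdermin (9.39 and 19.1 CPM). The lowest 3 were Serpinb2 (36.2 and 8.49 CPM), Il18rap, the accessory chain of the interleukin-18 receptor (34 and 2 UMIs), and Traf6, a signalling adaptor (38 and 3 UMIs). The adaptor gene Pycard (ASC), which links sensor to caspase-1, was 166 (KO) and 165 CPM (DKO) in macrophage-like cells (log2 ratio -0.01, -0.24 to 0.21) and 240 and 204 CPM in monocyte-like cells. The fourth lower gene, named after its values were seen, was Panx1, which encodes a membrane channel (24 and 2 UMIs). In neutrophil-like cells 13 genes of the list were counted, with 0 past 2-fold against 16.0% of all genes, and in dendritic cell-like cells 20, of which 3 were 2-fold lower (Il18bp, Traf6 and Trim30a) against 5.53% of all genes.

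Of the 6 receptor genes on the pathway list, 1 had at least 20 UMIs in each of the macrophage-like, monocyte-like and neutrophil-like classes, and 0 in dendritic cell-like cells. Il1r1, the signalling receptor of interleukin-1, gave 10 UMIs in KO macrophage-like cells and 0 in DKO, 1 and 0 in monocyte-like cells, and 0 in neutrophil-like cells of either library. Its highest count was in T cell-like cluster 7, which was led by Il22, Il17f and Foxp3, on 29 (KO) and 2 (DKO) UMIs (48.5 and 12.98 CPM, log2 ratio -1.60, -5.01 to 0.08). Il18r1, the interleukin-18 receptor, was 269 (KO) and 136 CPM (DKO) in that cluster (-0.95, -1.71 to -0.32), and 80.6 and 61.8 CPM in T cell-like cluster 5, led by Klra7, Mei1 and Syde2. Il18bp, which encodes a soluble binder of interleukin-18, was 51.5 (KO) and 41.1 CPM (DKO) in macrophage-like cells (-0.31, -0.79 to 0.11).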

How the data were processed

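Sorted colon cells were measured by 10x single-cell RNA sequencing, 1 library per genotype. Per the submitters' processing notes the authors used Cell Ranger 6.0.1 and Seurat 4.3.0 with the mm10 build, and deposited for each library a matrix of whole-number UMI counts, neither scaled nor corrected. Here a barcode was kept if it had between 300 and 5000 genes detected and no more than 10% of its UMIs were mitochondrial. Clustering (Seurat 5.3.0) used 2000 variable genes without the members and pathway genes, 30 principal components, 20 neighbours and resolution 0.3, and monocyte and macrophage clusters were clustered again. Dendritic cell clusters were taken from resolution 0.8, a choice made after the clusters were seen. Clusters were named from marker lists, with at least 3 markers required.

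UMIs were summed per class and library and divided by the class total. Intervals are exact Poisson for levels, exact conditional binomial for log2 ratios and Clopper-Pearson for shares (scipy 1.17.1). The log2 ratios themselves had 0.5 counts added to each sum, and their intervals did not. UMIs of 1 cell are not independent of each other, which these intervals do not cover. Shares were compared after thinning each cell to 1500 UMIs. Doublets were kept in the reported values, and the 5% of cells with the highest Scrublet score (scanpy 1.11.5) were left out as an alternative. TMM scaling (edgeR 4.0.16) was another. In the alternative that assigned each cell by its own markers, 140 of 878 KO and 17 of 185 DKO macrophages lay 1 marker from another class, as did 186 of 522 KO and 30 of 104 DKO monocytes. No test between genotypes was possible. The scripts were tested on simulated data. Gene positions came from GENCODE vM21 (GRCm38) and promoters from RefSeq, which held 9 of the 10 members. The genes named beyond the members were pathway genes past 2-fold in macrophage-like or monocyte-like cells, at most 3 in each direction, the 3 genes most like each of Il1a, Il1b, Il1rn and Il1r2, and the 3 leading genes of myeloid clusters. Pycard, Il1r1, Il18r1, Il18bp, Panx1, the T cell cluster genes and the pathway genes of dendritic cells were added after their values were seen. Members, lists and alternatives were chosen with earlier results of these data known. Pathway genes higher in dendritic cell-like cells are not reported here.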

Additional observations from a re-analysis of the deposited data

Results flagged for a closer look

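For 4 genes the DKO over KO log2 ratio lay on opposite sides of 0 in different cell classes, with counting intervals that did not include 0. Il1b was -0.46 in macrophage-like, -0.24 in monocyte-like and -0.17 in neutrophil-like cells, but 0.69 in dendritic cell-like cells. The dendritic cell-like ratio was 0.30 with cells assigned by their own markers, and Il1b was lower in DKO in cluster 15 of that class (361 and 11 UMIs). Il1rn was -0.85 in macrophage-like and -0.97 in monocyte-like cells, against 0.47 in dendritic cell-like cells, which became -0.16 with cells assigned by their own markers. Il1r2 was -0.30 in macrophage-like and -1.18 in monocyte-like cells, against 0.70 in dendritic cell-like cells. The macrophage-like Il1r2 ratio was 0.13 with clusters weighted as in KO, and the monocyte-like ratio -0.06 with cells assigned by their own markers. The opposite direction of Il1r2 was therefore not stable. Nlrp3 was -0.44 in macrophage-like, -0.58 in monocyte-like and -0.82 in neutrophil-like cells, against 0.92 in dendritic cell-like cells, which became 0.43 with cells assigned by their own markers. The difference between classes was not tested, since each genotype had 1 library.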

How the results depend on the processing

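No paired analysis was possible because each genotype had 1 library, and for the same reason no replicate could be left out. Among single genes, the sign of the log2 ratio was kept in 111 of 119 alternative values in macrophage-like and 93 of 98 in monocyte-like cells. It was kept in 73 of 77 in neutrophil-like and 84 of 85 in dendritic cell-like cells. A changed minimum of UMIs leaves a ratio as it was, so such alternatives could not change a sign. The sign was kept throughout for 5 of 10 genes in macrophage-like, 6 of 9 in monocyte-like, 6 of 8 in neutrophil-like and 7 of 8 in dendritic cell-like cells. TMM scaling moved all log2 ratios by -0.13 in macrophage-like and -0.11 in neutrophil-like cells. Each class had 1 member past 2-fold. In macrophage-like cells this became 0 under TMM scaling, with a minimum of 100 UMIs, without the top cell, after thinning and with clusters weighted as in KO, and 2 with cells assigned by their own markers. In monocyte-like cells it became 2 with no minimum, without likely doublets, without the top cell and with cells assigned by their own markers, and 4 with the Arg1-led cluster added, an alternative chosen after seeing the data. In neutrophil-like cells it became 0 at a minimum of 100 UMIs and 2 with none. In dendritic cell-like cells it became 0 at a minimum of 100 UMIs and without the top cell, and 2 with no minimum, without likely doublets and with clusters weighted as in KO. Leaving out the monocyte or macrophage cluster with most Arg1 changed none of these counts, since it lay outside the 4 classes. Weighting by cluster did not apply to monocyte-like and neutrophil-like cells, which were 1 cluster each.

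Il1rn UMIs per 100 Il1b UMIs in macrophage-like cells were 47.9 (KO) and 46.6 (DKO) after thinning, 45.2 and 41.2 with weighted clusters, 47.4 and 29.2 with cells assigned by their own markers, and 52.6 (KO) without likely doublets. In monocyte-like cells they were 26.6 and 18.3 with cells assigned by their own markers, and 20.8 (DKO) after thinning. In neutrophil-like cells they were 9.81 (KO) after thinning. In dendritic cell-like cells they were 9.05 and 6.55 with cells assigned by their own markers, 7.55 (KO) under a stricter cell filter and 3.98 (DKO) after thinning. Il1r2 UMIs per 100 Il1b UMIs in macrophage-like cells were 10.4 and 11.7 after thinning, 10.7 and 16.2 with weighted clusters, 11.7 (DKO) with cells assigned by their own markers and 12.6 (KO) without likely doublets. In monocyte-like cells they were 4.36 and 6.52 with cells assigned by their own markers and 4.51 (KO) after thinning. In dendritic cell-like cells they were 17.8 and 25.1 with cells assigned by their own markers. The cause of these shifts was not tested.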
